A study of Mus musculus with 22 samples.

Results

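Mitosis and spindle genes encode the proteins that take a cell from late G2 through chromosome segregation to cytokinesis. They were taken as the rows of the deposited count table whose Ensembl identifiers correspond to 50 listed mouse symbols. All 50 were found among the 55414 genes of the table, and all 50 passed the filter on low counts, which kept 17554 genes for testing. The values are RNA-seq counts from 22 libraries of fibroblasts sorted from mouse skin. Live cells without the vascular, blood, melanocyte and epithelial surface proteins CD31, CD45, CD117 and EpCAM were kept when they carried CD34 and PDGFRα. Every animal, control animals included, had been operated on: the back skin was opened close to the tail, a passage under the skin was made towards the neck, and the wound was stitched. In the expanded arm (EXP) a hydrogel expander, which stretches the skin above it, was held by stitches near the neck, and the control arm (CTRL) had the surgery without it. Cells were collected on day 1 (4 CTRL and 5 EXP libraries), day 2 (3 CTRL and 3 EXP) and day 4 (4 CTRL and 3 EXP). Strain, age and the number of mice behind a library are not given in the sources used here, so p-values measure the spread between these libraries.

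Entry into mitosis is set off by the kinase Cdk1 with cyclins A and B, and Plk1 and the Aurora kinases then build the spindle. Kinetochores tie the chromosomes to spindle microtubules, the spindle checkpoint holds the anaphase-promoting complex (APC/C) until every chromosome is attached, and motors and contractile-ring proteins then part the daughter cells. Most of these genes are transcribed in G2 and M phase and held low in resting cells, and dermal fibroblasts, which are mostly at rest in unwounded skin, are known to divide after injury.

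Library totals ran from 21461294 to 30210204 counts. Levels are given as CPM, the count scaled to the library total and its TMM factor, and a limit of 3 counts stood at 0.0804 to 0.157 CPM. Fibroblast markers summed to 69197 to 409545 CPM per library, and every EXP library lay below every CTRL library on days 1 and 2. Ptprc, which encodes CD45, reached at most 0.243 CPM. The list of 12 immune cell markers that holds Ptprc summed to 37.8 to 166 CPM per library. A set of 192 genes, with 0 of the 50 mitosis and spindle genes among them, divided the libraries into 7 high and 15 low ones by a gap of 0.70 in mean log2 CPM. The high side held CTRL replicates 1 to 3 and EXP replicates 1 and 2 of day 1 and CTRL replicates 3 and 4 of day 4, and the labels record no such division. Mitochondrial genes took 1.09% to 1.83% of counts in EXP and 0.818% to 0.925% in CTRL on day 1, 1.17% to 1.40% and 0.617% to 1.10% on day 2, and 0.948% to 1.26% and 0.677% to 1.02% on day 4. The arms were apart on days 1 and 2, and the part of this difference in the results was not tested.

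Summed over the 50 genes, the mitotic transcripts were lower with the expander on day 1 and higher with it on days 2 and 4. On day 1 the CTRL libraries held summed levels of 176, 183, 410 and 129 CPM and the EXP libraries 51.8, 32.4, 39.9, 55.3 and 38.2 CPM. On day 2 the CTRL libraries held 44.8, 65.6 and 145 CPM and the EXP libraries 315, 461 and 371 CPM. On day 4 the CTRL libraries held 164, 107, 78.5 and 47.0 CPM and the EXP libraries 1363, 426 and 326 CPM. Expanded and control libraries did not overlap on any of the 3 days. The mean sum was 5.16-fold higher in CTRL than in EXP on day 1, 4.49-fold higher in EXP than in CTRL on day 2 and 7.12-fold higher in EXP on day 4. Replicate 3 of the day 1 controls was the highest of its group for 49 of the 50 genes, and without it the day 1 ratio was 3.74-fold. Replicate 1 of the day 4 EXP libraries was likewise the highest of its group for 49 genes, and without it the day 4 ratio was 3.79-fold. In bulk RNA, fewer dividing cells and less of these transcripts per dividing cell cannot be told apart.

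**Figure D1:**
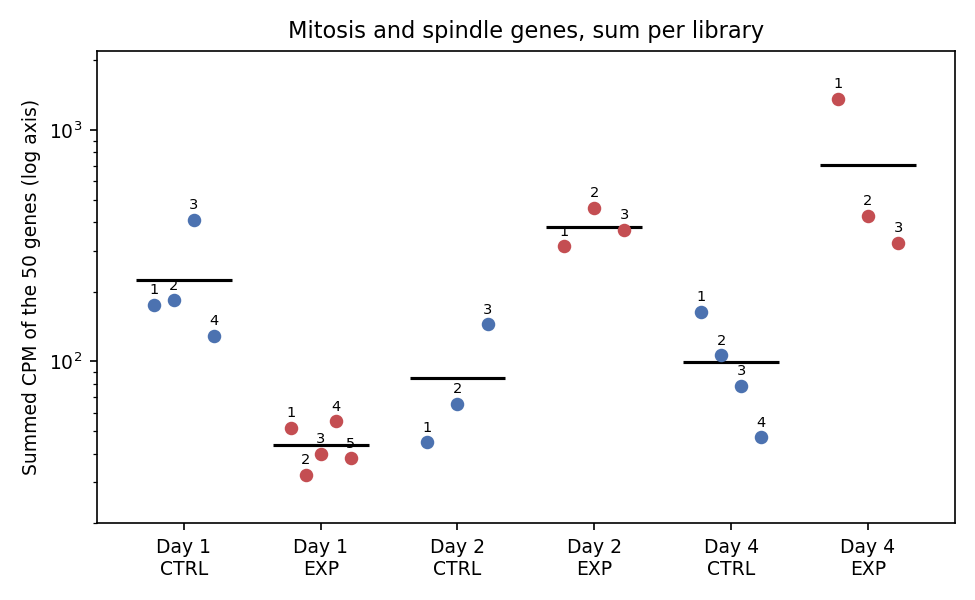
Summed CPM of the 50 mitosis and spindle genes in each library on a log axis, with CTRL in blue, EXP in red, replicate numbers above the points and black lines at group means. The day 1 EXP libraries lie between 32.4 and 55.3 CPM, below every day 1 CTRL library, and the day 2 and day 4 EXP libraries lie between 315 and 1363 CPM, above every CTRL library of their day.

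Gene by gene, EXP was compared with CTRL on each day with edgeR's quasi-likelihood test, and p-values were adjusted over all 17554 genes. The value after ± beside a log2 fold change is an approximate standard error. It is the size of the fold change divided by the square root of the test's F statistic. On day 1, 42 of the 50 genes were lower in EXP and 0 higher, at adjusted p under 0.05, where 14.7% of all genes tested were lower and 13.9% higher. The median log2 fold change of the 50 was -3.28, against 0.02 for all genes tested. On day 2, 27 were higher and 0 lower, where 7.72% of all genes were higher and 5.71% lower, and the median was 2.28 against 0.02. On day 4, all 50 were higher, where 12.8% of all genes were higher and 9.66% lower, and the median was 3.04 against 0.03. The lowest EXP library lay above the highest CTRL library for 43 of the 50 on day 2 (20.9% of all genes) and for 47 on day 4 (13.8%). On day 1 every EXP library lay below every CTRL library for 40 of the 50 (12.2% of all genes). TMM scaling mattered for the background: on unscaled library totals the median of all genes moved to 0.21, 0.49 and 0.36 on days 1, 2 and 4, and 66.2%, 90.5% and 80.8% of all called genes were higher in EXP, against 48.7%, 57.5% and 57.0% with TMM. Of the 50 genes, 41 were then called lower on day 1 (9.87% of all genes), and 38 on day 2 (23.9%) and all 50 on day 4 (24.3%) were called higher.

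The size of the day 2 and day 4 counts rested on single libraries. Without replicate 1 of the day 2 controls 5 genes were called higher on day 2 (4.42% of all genes), and without replicate 2 of those controls 6 were (3.63%). Leaving out replicate 1 of the day 2 EXP libraries left 14 (3.26% of all genes), and leaving out replicate 3 also left 14 (4.81%). With every gene that had a count in the test, 13 were called on day 2 (2.93%). The limma voom fit, run here with quality weights for libraries, called 45 (13.5%). Without replicate 1 of the day 4 EXP libraries 16 genes were called higher on day 4 (5.94% of all genes), and a fit of day 4 alone called 27 (4.68%). Among the 7 high-side and 15 low-side libraries, day 1 could be compared within the high side, where 36 of the 50 were lower in EXP (7.5% of all genes). Within the low side of day 4, with 2 CTRL and 3 EXP libraries, edgeR called 0 at adjusted p under 0.05. At that limit 0.00607% of all genes were called higher. An unadjusted p under 0.05 was found for 43, and the share of all genes at this looser limit is not given here.

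**Figure D2:**
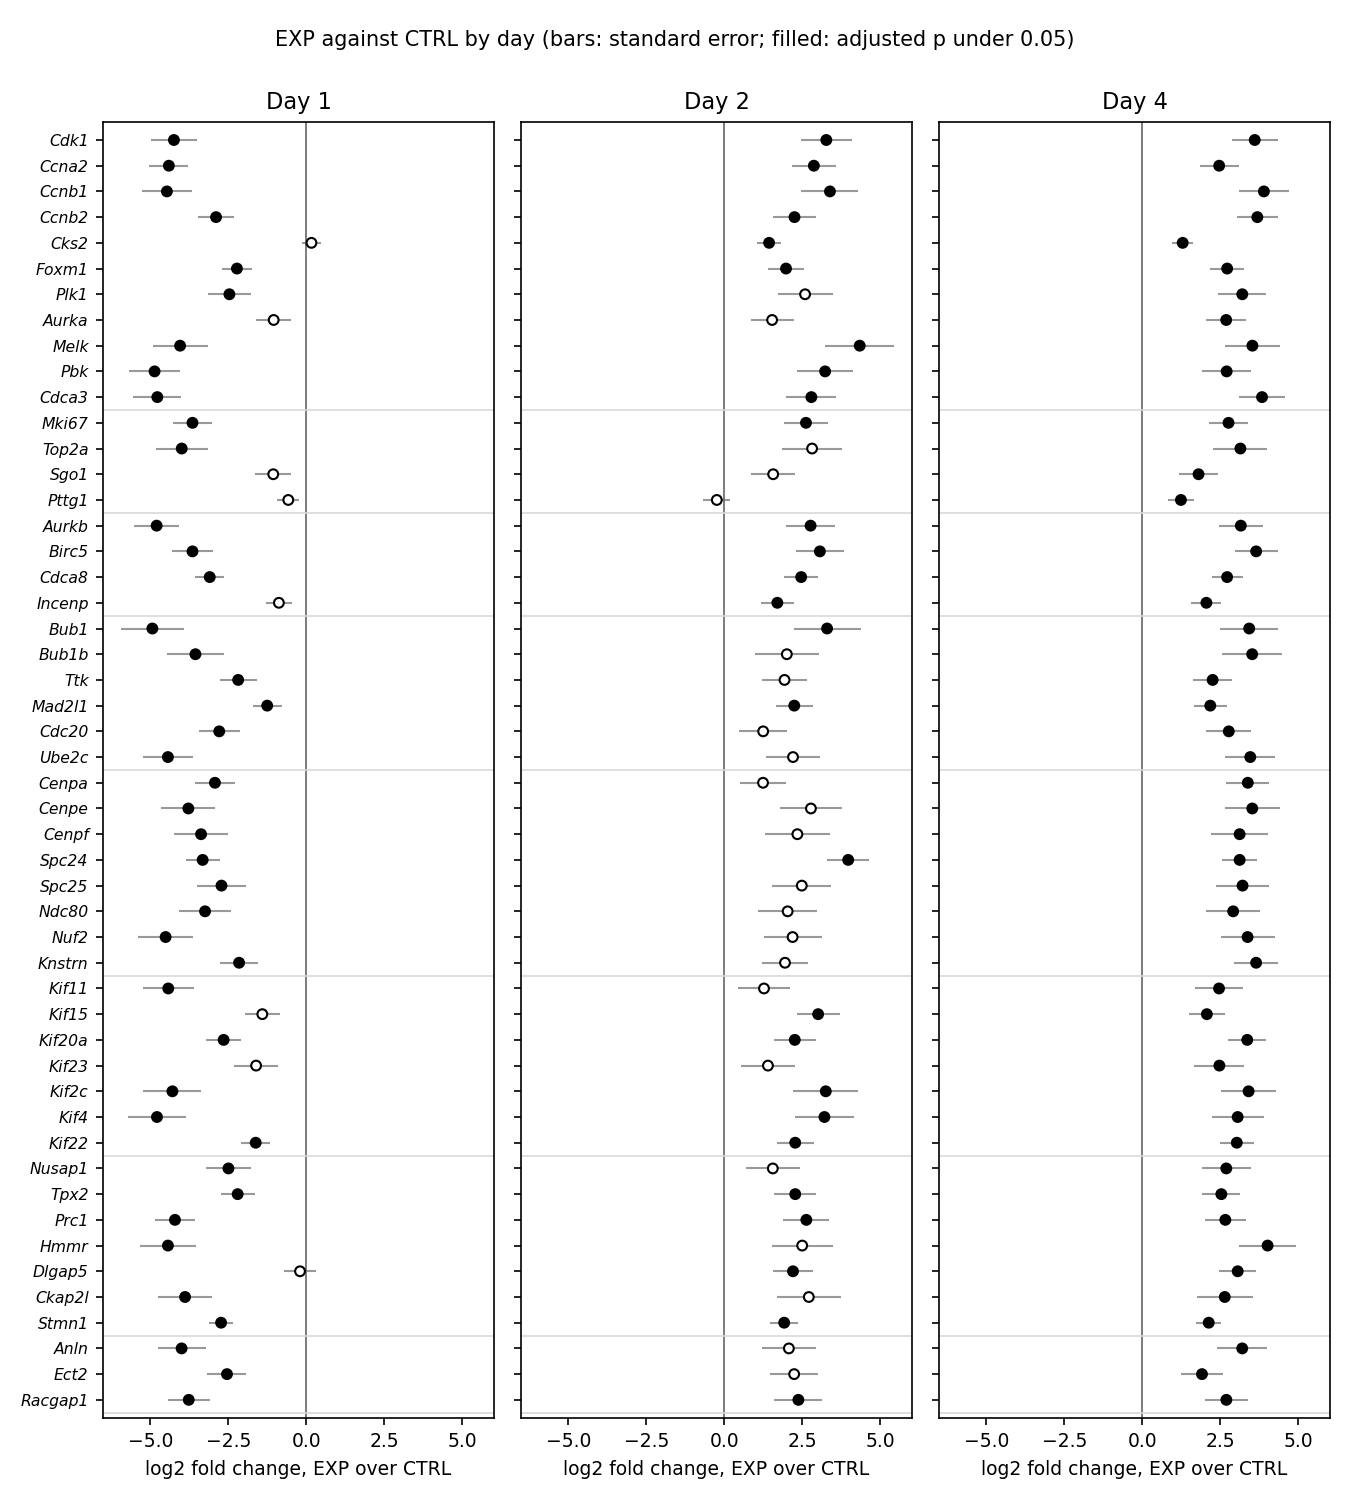
Log2 fold change of EXP over CTRL for each of the 50 genes on days 1, 2 and 4, with approximate standard errors as bars and filled points for adjusted p under 0.05. Genes run from mitotic entry at the top to cytokinesis at the bottom, grey lines part the roles, and the points lie left of 0 on day 1 except that of Cks2, right of 0 on day 2 except that of Pttg1, and right of 0 on day 4.

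Across the 3 days, 23 genes were lower on day 1 and higher on days 2 and 4, and 19 were lower on day 1, not called on day 2 and higher on day 4. Cks2, Incenp, Kif15 and Dlgap5 were called on days 2 and 4 only, and Aurka, Sgo1, Pttg1 and Kif23 on day 4 only. The EXP effect depended on the day in a joint test for 47 of the 50, where 8.82% of all genes were called, and the other 3 were Cks2, Sgo1 and Pttg1. The change in the effect from day 1 to day 2 was called for 43 genes, all upwards, where 2.48% of all genes were called upwards, with a median of 5.56 on the log2 scale. The effect on day 4 differed from that on day 2 for 0 of the 50 by edgeR, DESeq2 or limma voom, where edgeR called 0 of all genes. At an unadjusted edgeR p under 0.05 stood 2 of the 50, with no share of all genes given here for that limit.

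Within the expanded arm the transcripts were higher on day 2 than on day 1. The labels record no processing batch, so in comparisons between days of one arm, time and a batch following the day cannot be told apart. The library division was also uneven between days, with no day 2 library on its high side. Of the 50 genes, 43 were called higher on day 2 than on day 1, where 2.27% of all genes were, with a median log2 fold change of 3.95. The largest was that of Kif4, at 6.09 ± 0.95 (adjusted p = 0.00131), and the smallest that of Cks2, at 0.41 ± 0.33 (adjusted p = 0.546). Kif4 held 3, 5, 0, 0 and 0 counts in the day 1 EXP libraries, so the size of its fold change is imprecise. Between days 2 and 4 of the expanded arm 0 of the 50 were called by edgeR, DESeq2 or limma voom. Of all genes, edgeR called 0.336% higher and 0.0513% lower. At an unadjusted edgeR p under 0.05 stood 5 of the 50, with no share of all genes given here for that limit. In the control arm 49 of the 50 had lower fitted levels on day 2 than on day 1, with a median log2 fold change of -1.59. By edgeR 0 of these were called, where 0.216% of all genes were called lower and 0.0798% higher. DESeq2 called 6 lower (1.78% of all genes) and limma voom 7 (2%). An unadjusted edgeR p under 0.05 was found for 27, and the share of all genes at this looser limit is not given here. From day 2 to day 4 of the control arm 37 of the 50 had higher fitted levels, 0 were called by any of the 3 tools, 0 had an unadjusted edgeR p under 0.05, and 0.0057% of all genes were called higher.

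**Figure D3:**
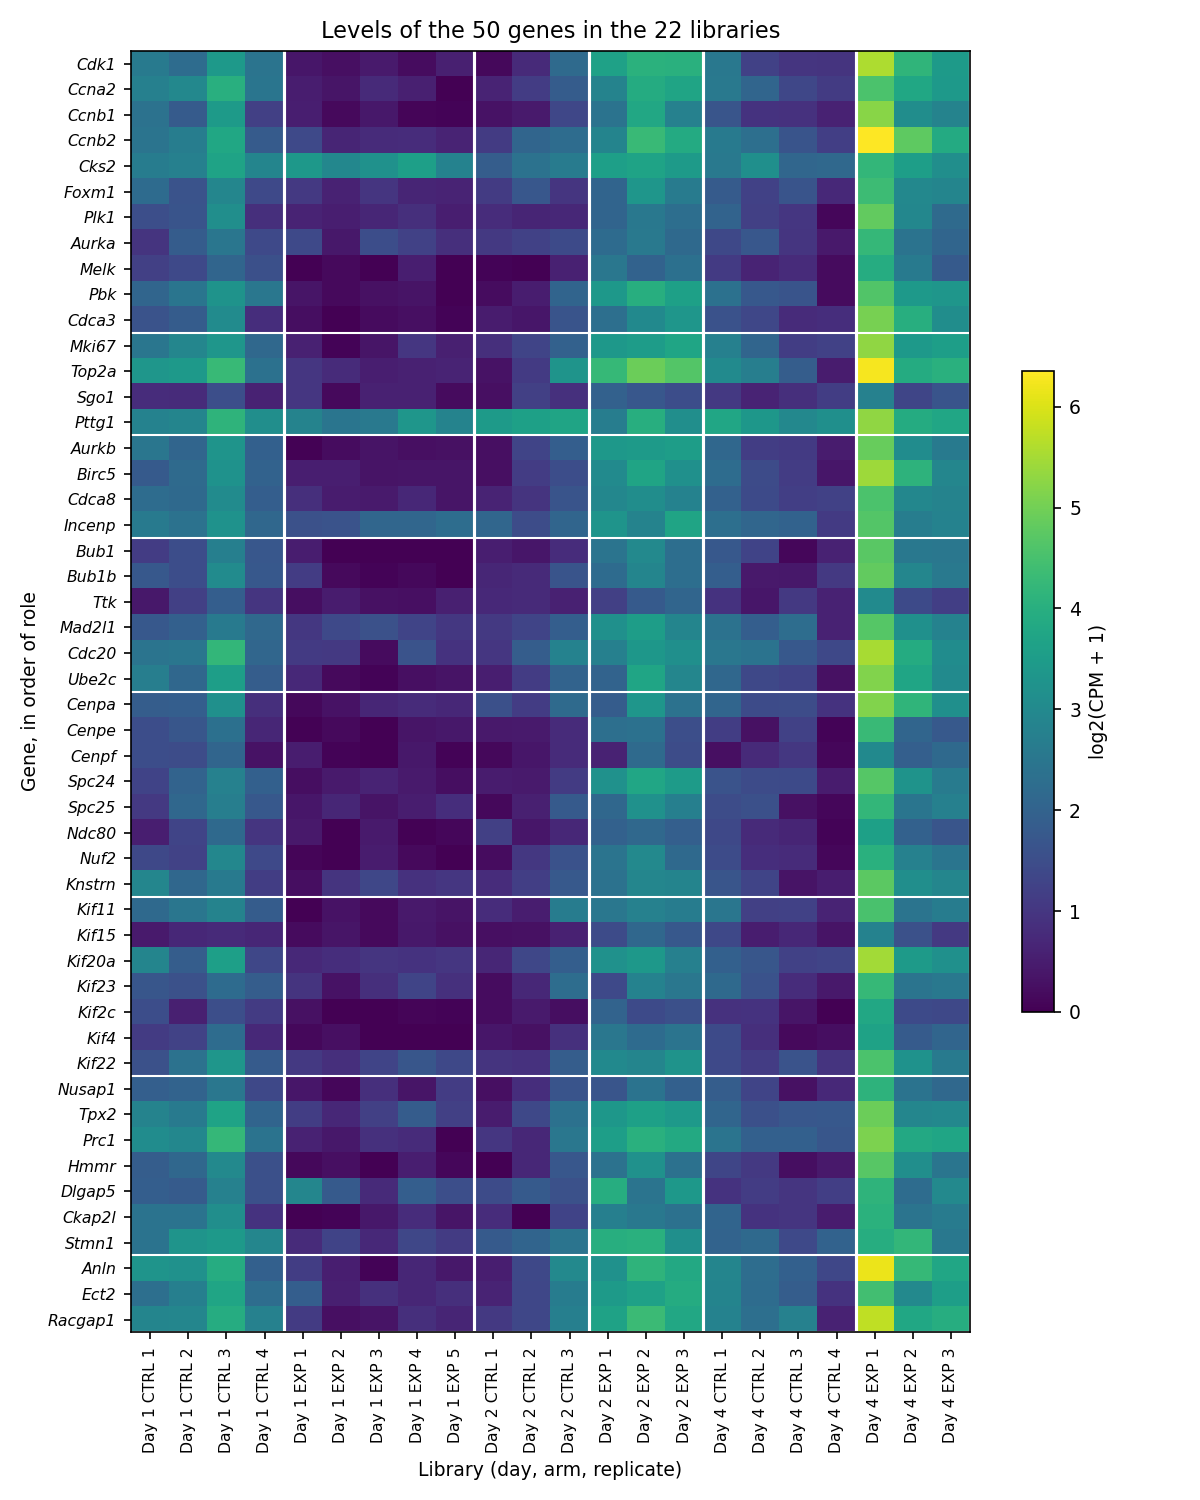
Levels of the 50 genes, in order of role, in the 22 libraries as log2(CPM + 1), with white lines between groups and between roles. The columns of day 1 EXP are dark in nearly every row, the columns of day 2 EXP and day 4 EXP are light, replicate 1 of day 4 EXP is the lightest column, and Cks2 and Pttg1 keep a visible level in every library.

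The 250 bases before the transcription starts of the 50 genes were searched for a pair of elements known from mitotic promoters. The CCAAT box is bound by the factor NF-Y, and the cell cycle homology region, searched here as TTTGAA or TTTAAA, is bound by the MuvB complexes that hold such genes low in resting cells and switch them on in G2. RefSeq start sites of the build GRCm38.p6 were given for 40 of the 50 genes, and those not matched were Ccna2, Foxm1, Pbk, Aurkb, Incenp, Spc24, Kif20a, Tpx2, Dlgap5 and Stmn1. On either strand, 28 of the 40 (70.0%) held at least 1 CCAAT, against 37.5% of 27025 genes with windows of the same length. At least 2 were held by 21 of the 40 (52.5%), against 11.5% of all genes. TTTGAA or TTTAAA was held by 18 of the 40 (45.0%), against 28.1%, and both kinds of element by 15 (37.5%), against 11.2%. A match is a run of letters and not a measured binding site.

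The promoters of 6 genes with different amounts of these elements are shown, chosen after the matches were seen. Capitals mark CCAAT or, where it lies on the other strand, ATTGG. They also mark TTTGAA or, on the other strand, TTCAAA, and lastly TTTAAA, which reads the same on both strands. Each sequence runs 5′ to 3′ towards the start site and ends on the base before it. Top2a (GRCm38.p6, chr11:99024190-99024439 on the minus strand) holds 6 CCAAT and 2 TTTGAA. Ube2c (chr2:164769679-164769928 on the plus strand) holds 6 CCAAT, of which 2 overlap in one run of capitals, and 1 TTTGAA. Cdk1 (chr10:69352913-69353162 on the minus strand) holds 3 CCAAT and 2 TTTGAA, and Ccnb2 (chr9:70421555-70421804 on the minus strand) 3 CCAAT and 1 TTTGAA. Ccnb1 (chr13:100786487-100786736 on the minus strand) holds 2 CCAAT and 1 TTTAAA, and Pttg1 (chr11:43425982-43426231 on the minus strand) holds none of these letters in this window.
Top2a: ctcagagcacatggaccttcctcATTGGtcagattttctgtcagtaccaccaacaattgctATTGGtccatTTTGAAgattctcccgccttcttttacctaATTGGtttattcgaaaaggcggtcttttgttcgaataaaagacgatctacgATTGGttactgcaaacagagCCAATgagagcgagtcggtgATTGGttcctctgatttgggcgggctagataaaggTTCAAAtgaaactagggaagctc
Ube2c: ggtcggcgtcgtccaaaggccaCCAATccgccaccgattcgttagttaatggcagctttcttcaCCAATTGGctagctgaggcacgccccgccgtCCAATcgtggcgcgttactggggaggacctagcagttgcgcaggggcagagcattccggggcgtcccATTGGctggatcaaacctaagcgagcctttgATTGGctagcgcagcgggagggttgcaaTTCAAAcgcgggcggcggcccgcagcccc
Cdk1: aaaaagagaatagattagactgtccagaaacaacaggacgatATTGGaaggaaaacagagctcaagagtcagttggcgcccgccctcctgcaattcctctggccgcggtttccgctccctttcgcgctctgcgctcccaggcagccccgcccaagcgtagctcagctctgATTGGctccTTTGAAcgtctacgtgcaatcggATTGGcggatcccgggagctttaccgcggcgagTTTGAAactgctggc
Ccnb2: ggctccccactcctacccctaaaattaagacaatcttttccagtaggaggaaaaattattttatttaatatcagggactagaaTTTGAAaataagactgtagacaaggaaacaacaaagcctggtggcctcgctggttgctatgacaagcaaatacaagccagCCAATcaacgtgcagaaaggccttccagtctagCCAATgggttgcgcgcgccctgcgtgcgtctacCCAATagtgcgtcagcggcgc
Ccnb1: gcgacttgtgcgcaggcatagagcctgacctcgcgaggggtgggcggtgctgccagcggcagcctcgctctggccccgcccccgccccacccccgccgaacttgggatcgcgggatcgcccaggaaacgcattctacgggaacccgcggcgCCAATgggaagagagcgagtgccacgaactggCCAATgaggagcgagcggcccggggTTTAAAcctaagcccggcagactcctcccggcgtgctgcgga
Pttg1: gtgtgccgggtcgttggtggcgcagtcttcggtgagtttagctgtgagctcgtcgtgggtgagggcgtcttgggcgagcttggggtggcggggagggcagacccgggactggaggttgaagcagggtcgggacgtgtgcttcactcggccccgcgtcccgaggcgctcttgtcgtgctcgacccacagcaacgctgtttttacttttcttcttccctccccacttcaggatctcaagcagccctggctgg

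Among genes of mitotic entry, 9 of 11 were lower in EXP on day 1, while 9 on day 2 and 11 on day 4 were higher, with median log2 fold changes of -4.04, 2.79 and 3.21. Ccnb2 encodes a B-type cyclin, which partners Cdk1 at the start of mitosis. Ccnb2 stood at 4.45, 5.46, 12.9 and 2.57 CPM in the CTRL libraries of day 1 and at 1.64, 0.565, 0.726, 0.764 and 0.547 CPM in the EXP libraries. On day 2 Ccnb2 stood at 1.14, 3.18 and 3.77 CPM in CTRL and at 6.30, 18.7 and 13.8 CPM in EXP. On day 4 Ccnb2 stood at 5.08, 4.03, 2.14 and 1.25 CPM in CTRL and at 80.7, 26.2 and 13.8 CPM in EXP. The arms did not overlap on any day, and EXP replicate 1 of day 4 was over 3 times the next. Its log2 fold changes of EXP over CTRL were -2.89 ± 0.59 (adjusted p = 0.00128), 2.25 ± 0.70 (adjusted p = 0.0375) and 3.69 ± 0.65 (adjusted p = 0.00119) on days 1, 2 and 4. Ccna2, the A-type cyclin of S and G2 phase, was lower in EXP on day 1, averaging 8.05 ± 4.77 CPM (SD) over 4 CTRL libraries against 0.374 ± 0.255 CPM over 5 EXP libraries. Its log2 fold changes were -4.40 ± 0.63 (adjusted p = 5.73e-05), 2.87 ± 0.72 (adjusted p = 0.0119) and 2.47 ± 0.62 (adjusted p = 0.00961).

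Cks2, a small subunit that docks Cdk1 on its substrates, was not called on day 1. Its levels on day 1 were 5.31, 5.85, 11.9 and 6.36 CPM in CTRL and 9.39, 6.62, 8.28, 11.0 and 6.01 CPM in EXP. On day 2 Cks2 stood at 2.69, 4.23 and 5.25 CPM in CTRL and 11.0, 12.0 and 10.05 CPM in EXP, and on day 4 at 4.88, 7.98, 3.31 and 3.42 CPM and 17.5, 10.8 and 7.75 CPM. The arms overlapped on days 1 and 4 and were apart on day 2. Its log2 fold change was 0.17 ± 0.31 (adjusted p = 0.719) on day 1, 1.44 ± 0.38 (adjusted p = 0.0163) on day 2 and 1.30 ± 0.35 (adjusted p = 0.0125) on day 4, and its joint test across days gave an adjusted p of 0.13. Aurka, the kinase of the spindle poles, was also not called on day 1, at -1.04 ± 0.56 (adjusted p = 0.169), and was higher on day 4, at 2.69 ± 0.64 (adjusted p = 0.00648). The other entry genes, among them Cdk1, Plk1, Ccnb1 and the transcription factor gene Foxm1, were each lower on day 1 and higher on day 4.

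Of the chromosome and cohesion genes, 2 of 4 were lower in EXP on day 1, while 1 on day 2 and 4 on day 4 were higher, with median log2 fold changes of -2.35, 2.09 and 2.29. Top2a, the topoisomerase that untangles sister chromatids, stood at 9.19, 9.62, 18.4 and 4.14 CPM in CTRL and at 1.01, 0.727, 0.436, 0.509 and 0.547 CPM in EXP on day 1. On day 2 Top2a stood at 0.249, 1.10 and 8.76 CPM in CTRL and 18.1, 29.6 and 24.2 CPM in EXP, and on day 4 at 7.25, 5.53, 2.64 and 0.389 CPM and 75.4, 14.02 and 15.3 CPM. Every EXP library lay below CTRL on day 1 and above it on days 2 and 4, with a wide spread among the controls of days 2 and 4. The log2 fold changes of Top2a were -3.99 ± 0.84 (adjusted p = 0.00164), 2.82 ± 0.96 (adjusted p = 0.0580) and 3.15 ± 0.87 (adjusted p = 0.0153), so the day 2 difference did not pass the threshold. Mki67, which encodes the Ki-67 protein that coats mitotic chromosomes, averaged 5.96 ± 2.51 CPM (SD) over 4 CTRL libraries of day 1 against 0.462 ± 0.360 CPM over 5 EXP libraries. Its day 2 averages were 1.73 ± 1.09 CPM and 10.7 ± 1.43 CPM over 3 libraries each. Its log2 fold changes were -3.65 ± 0.61 (adjusted p = 0.000251), 2.62 ± 0.71 (adjusted p = 0.0195) and 2.77 ± 0.63 (adjusted p = 0.00560).

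Pttg1 encodes securin, which restrains the protease separase until anaphase. Pttg1 stood at 6.01, 6.35, 16.7 and 7.85 CPM in CTRL and 6.15, 4.56, 4.97, 9.13 and 6.12 CPM in EXP on day 1. On day 2 Pttg1 stood at 10.003, 11.2 and 12.0 CPM and 5.51, 14.9 and 7.77 CPM, and on day 4 at 12.5, 9.31, 6.87 and 7.92 CPM and 38.1, 13.9 and 12.6 CPM. The arms overlapped on days 1 and 2 and were only just apart on day 4, at 12.5 CPM in the highest CTRL and 12.6 CPM in the lowest EXP library. Its log2 fold changes were -0.58 ± 0.36 (adjusted p = 0.242), -0.24 ± 0.44 (adjusted p = 0.771) and 1.24 ± 0.40 (adjusted p = 0.0328). Sgo1, shugoshin, which shields centromeric cohesion, was called on day 4 only, at 1.80 ± 0.64 (adjusted p = 0.0459).

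**Figure D4:**
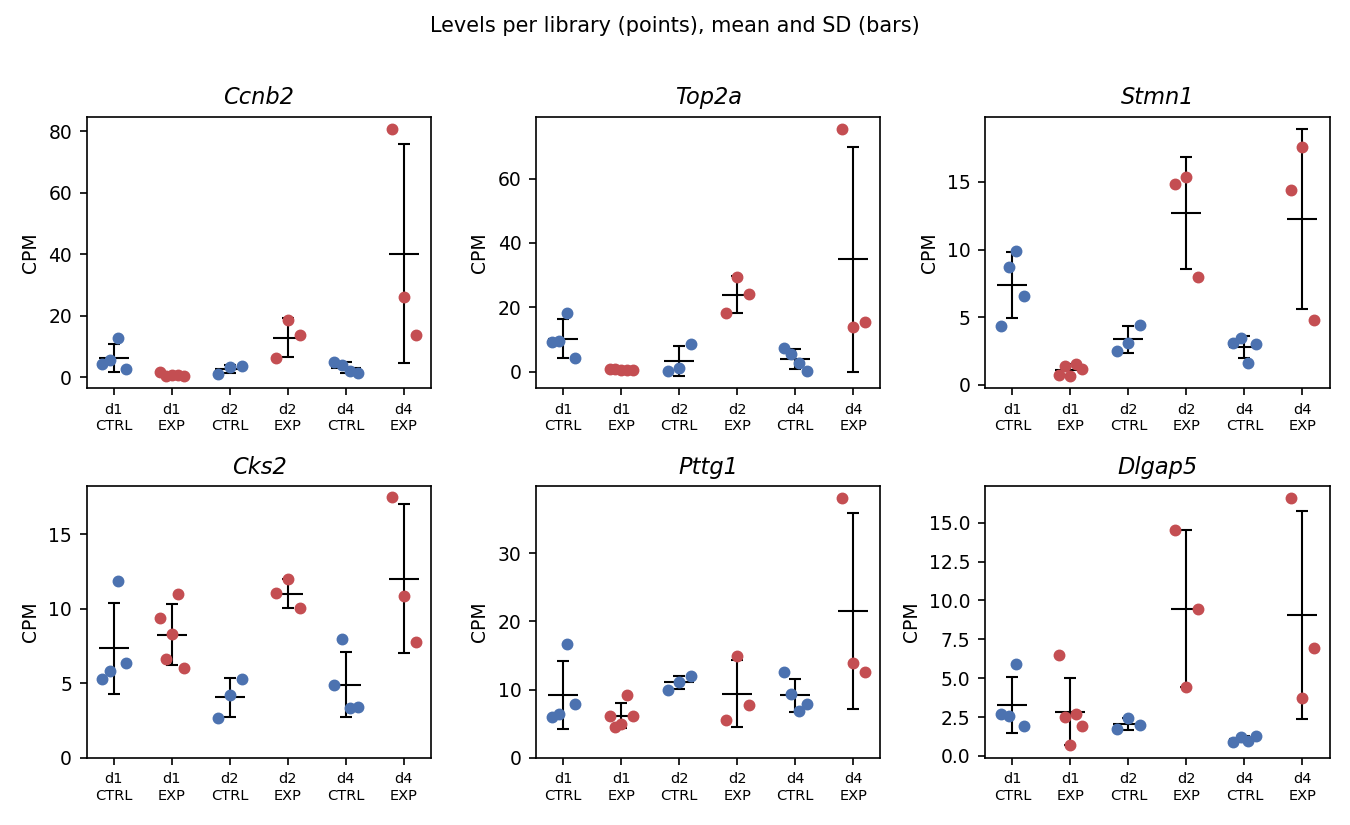
CPM of Ccnb2, Top2a, Stmn1, Cks2, Pttg1 and Dlgap5 in each library, with CTRL in blue, EXP in red, and the group mean and SD in black. The EXP points of Ccnb2, Top2a and Stmn1 lie below CTRL on day 1 and above CTRL on days 2 and 4, while those of Cks2, Pttg1 and Dlgap5 overlap CTRL on day 1.

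The chromosomal passenger complex, made of the kinase Aurkb with Incenp, Birc5 and Cdca8, corrects faulty attachments and later steers cytokinesis. Of these genes, 3 of 4 were lower in EXP on day 1, while 4 on day 2 and 4 on day 4 were higher, with median log2 fold changes of -3.37, 2.62 and 2.94. Birc5, survivin, stood at 2.47, 3.56, 8.41 and 3.03 CPM in CTRL and 0.454, 0.444, 0.254, 0.286 and 0.292 CPM in EXP on day 1. On day 2 Birc5 stood at 0.199, 1.20 and 1.84 CPM and 7.29, 12.0 and 8.08 CPM, and on day 4 at 3.72, 1.72, 1.17 and 0.303 CPM and 42.0, 16.3 and 6.53 CPM. The arms were apart on each day, and the log2 fold changes were -3.65 ± 0.66 (adjusted p = 0.000433), 3.07 ± 0.77 (adjusted p = 0.0125) and 3.65 ± 0.69 (adjusted p = 0.00170). Cdca8, borealin, averaged 1.21 ± 0.839 CPM (SD) over 3 CTRL libraries of day 2 against 6.77 ± 0.753 CPM over 3 EXP libraries. Its log2 fold changes were -3.09 ± 0.46 (adjusted p = 7.72e-05), 2.47 ± 0.55 (adjusted p = 0.00611) and 2.72 ± 0.49 (adjusted p = 0.00123). Incenp, the scaffold of the complex, stood at 5.15, 4.28, 8.44 and 3.37 CPM in CTRL and 1.96, 2.06, 3.27, 3.31 and 3.86 CPM in EXP on day 1, and these ranges overlapped. EXP over CTRL gave log2 fold changes of -0.88 ± 0.42 (adjusted p = 0.125), 1.70 ± 0.53 (adjusted p = 0.0360) and 2.06 ± 0.48 (adjusted p = 0.00602).

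Of the spindle checkpoint and APC/C genes, 6 of 6 were lower in EXP on day 1, while 2 on day 2 and 6 on day 4 were higher, with median log2 fold changes of -3.17, 2.11 and 3.10. The 2 called on day 2 were the checkpoint genes Bub1, at 3.30 ± 1.07 (adjusted p = 0.0472), and Mad2l1, at 2.24 ± 0.59 (adjusted p = 0.0150). Ube2c, the ubiquitin-conjugating enzyme of the APC/C, stood at 5.60, 3.39, 10.8 and 2.68 CPM in CTRL and 0.663, 0.121, 0.0363, 0.191 and 0.255 CPM in EXP on day 1. On day 2 Ube2c stood at 0.448, 1.20 and 3.05 CPM and 3.03, 12.3 and 6.56 CPM, and on day 4 at 3.38, 1.59, 1.42 and 0.216 CPM and 34.8, 12.4 and 7.28 CPM. The day 2 arms met at 1 library of each, and on days 1 and 4 they were apart. The log2 fold changes of Ube2c were -4.43 ± 0.79 (adjusted p = 0.000435), 2.20 ± 0.86 (adjusted p = 0.0967) and 3.46 ± 0.80 (adjusted p = 0.00602). Cdc20, the activator of the APC/C at anaphase, had log2 fold changes of -2.79 ± 0.66 (adjusted p = 0.00391), 1.25 ± 0.78 (adjusted p = 0.312) and 2.77 ± 0.72 (adjusted p = 0.0118), and control replicate 3 of day 1, at 17.5 CPM, was over 3 times the next. Bub1b, the checkpoint protein BubR1, stood at 1.19 CPM in EXP replicate 1 of day 1 and at no more than 0.121 CPM in the other 4. The contrast of the arms gave log2 values of -3.55 ± 0.91 (adjusted p = 0.00641), 2.01 ± 1.03 (adjusted p = 0.211) and 3.52 ± 0.96 (adjusted p = 0.0142).

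Of the kinetochore and centromere genes, 8 of 8 were lower in EXP on day 1, while 1 on day 2 and 8 on day 4 were higher, with median log2 fold changes of -3.28, 2.27 and 3.30. The one called on day 2 was Spc24, a subunit of the NDC80 complex that grips microtubules. Spc24 stood at 1.44, 3.09, 5.94 and 2.83 CPM in CTRL and 0.175, 0.363, 0.544, 0.382 and 0.182 CPM in EXP on day 1. On day 2 Spc24 stood at 0.398, 0.365 and 1.17 CPM and 8.21, 12.4 and 10.3 CPM, and on day 4 at 2.08, 1.76, 1.68 and 0.389 CPM and 24.6, 8.64 and 5.25 CPM. The arms were well apart on days 1 and 2 and apart on day 4, with log2 fold changes of -3.32 ± 0.55 (adjusted p = 0.000183), 3.97 ± 0.68 (adjusted p = 0.000905) and 3.12 ± 0.57 (adjusted p = 0.00130). Its complex partners Spc25, Ndc80 and Nuf2 had day 2 log2 fold changes of 2.49, 2.03 and 2.19 that did not pass, with adjusted p of 0.0852, 0.161 and 0.125. For Ndc80 the day 2 levels were 1.29, 0.313 and 0.629 CPM in CTRL and 2.94, 3.46 and 2.81 CPM in EXP, which did not overlap. Cenpa, the histone variant that marks centromeres, had log2 fold changes of -2.93 ± 0.64 (adjusted p = 0.00203), 1.24 ± 0.72 (adjusted p = 0.276) and 3.38 ± 0.69 (adjusted p = 0.00273), and on day 2 its arms overlapped, with 1.94, 1.20 and 3.55 CPM in CTRL and 2.61, 9.08 and 4.25 CPM in EXP.

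Of the kinesin motors, 5 of 7 were lower in EXP on day 1, while 5 on day 2 and 7 on day 4 were higher, with median log2 fold changes of -2.65, 2.28 and 3.03. Kif20a, a motor of the spindle midzone, stood at 6.47, 2.67, 11.1 and 1.53 CPM in CTRL and 0.663, 0.767, 0.980, 0.891 and 1.02 CPM in EXP on day 1. On day 2 Kif20a stood at 0.597, 1.57 and 2.74 CPM and 8.34, 9.52 and 5.80 CPM, and on day 4 at 2.85, 2.27, 1.34 and 1.47 CPM and 43.2, 9.96 and 8.10 CPM. The arms did not overlap on any day, and the log2 fold changes were -2.65 ± 0.55 (adjusted p = 0.00143), 2.26 ± 0.67 (adjusted p = 0.0303) and 3.37 ± 0.62 (adjusted p = 0.00145). Kif22, which pushes chromosome arms towards the spindle equator, had log2 fold changes of -1.62 ± 0.47 (adjusted p = 0.0132), 2.28 ± 0.59 (adjusted p = 0.0150) and 3.03 ± 0.54 (adjusted p = 0.00117). Kif23, the motor subunit of centralspindlin, stood at 2.22, 1.99, 3.65 and 2.68 CPM in CTRL and 0.943, 0.242, 0.799, 1.46 and 0.838 CPM in EXP on day 1, which did not overlap. In log2 terms EXP differed from CTRL by -1.61 ± 0.72 (adjusted p = 0.0993), 1.40 ± 0.87 (adjusted p = 0.310) and 2.47 ± 0.80 (adjusted p = 0.0322). Kif15, a motor that helps to hold the poles apart, was not called on day 1, at -1.41 ± 0.56 (adjusted p = 0.0653), and was higher on day 2, at 3.01 ± 0.69 (adjusted p = 0.00695).

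Of the spindle microtubule genes, 6 of 7 were lower in EXP on day 1, while 4 on day 2 and 7 on day 4 were higher, with median log2 fold changes of -2.73, 2.28 and 2.66. Stmn1, stathmin, a protein that destabilises microtubules, stood at 4.33, 8.68, 9.87 and 6.55 CPM in CTRL and 0.733, 1.41, 0.653, 1.56 and 1.17 CPM in EXP on day 1. On day 2 Stmn1 stood at 2.49, 3.13 and 4.45 CPM and 14.9, 15.4 and 7.96 CPM, and on day 4 at 3.09, 3.47, 1.63 and 2.99 CPM and 14.4, 17.6 and 4.78 CPM. The arms did not overlap on any day, and on day 4 the highest EXP library was replicate 2 rather than replicate 1. The log2 fold changes of Stmn1 were -2.73 ± 0.37 (adjusted p = 3.54e-05), 1.92 ± 0.45 (adjusted p = 0.00748) and 2.13 ± 0.41 (adjusted p = 0.00172). Prc1, which bundles the antiparallel microtubules of the midzone, had log2 fold changes of -4.21 ± 0.65 (adjusted p = 0.000122), 2.63 ± 0.74 (adjusted p = 0.0229) and 2.66 ± 0.66 (adjusted p = 0.00860). Dlgap5, which stabilises microtubules near chromosomes, stood at 2.72, 2.54, 5.90 and 1.95 CPM in CTRL and 6.49, 2.50, 0.690, 2.71 and 1.90 CPM in EXP on day 1. On day 2 Dlgap5 stood at 1.74, 2.45 and 1.98 CPM and 14.5, 4.44 and 9.48 CPM, and on day 4 at 0.919, 1.20, 0.964 and 1.25 CPM and 16.6, 3.71 and 6.92 CPM. The arms overlapped on day 1, where the highest library was an EXP one, and were apart on days 2 and 4. The fitted log2 fold changes were -0.20 ± 0.50 (adjusted p = 0.800), 2.20 ± 0.63 (adjusted p = 0.0248) and 3.06 ± 0.59 (adjusted p = 0.00194).

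Of the cytokinesis genes, 3 of 3 were lower in EXP on day 1, while 1 on day 2 and 3 on day 4 were higher, with median log2 fold changes of -3.77, 2.24 and 2.70. Anln, anillin, the scaffold of the contractile ring, stood at 8.73, 8.22, 14.3 and 2.87 CPM in CTRL and 1.22, 0.444, 0.0363, 0.605 and 0.328 CPM in EXP on day 1. On day 2 Anln stood at 0.448, 1.62 and 6.96 CPM and 8.34, 16.6 and 13.3 CPM, and on day 4 at 6.38, 3.82, 2.89 and 1.56 CPM and 70.5, 18.0 and 12.5 CPM. The arms did not overlap on any day, although on day 2 control replicate 3 came close to EXP replicate 1. The log2 fold changes of Anln were -4.00 ± 0.77 (adjusted p = 0.00086), 2.07 ± 0.86 (adjusted p = 0.119) and 3.21 ± 0.80 (adjusted p = 0.00915). Racgap1, the partner of Kif23 in centralspindlin, was the cytokinesis gene called on day 2, with log2 fold changes of -3.77 ± 0.67 (adjusted p = 0.000428), 2.38 ± 0.77 (adjusted p = 0.0452) and 2.70 ± 0.69 (adjusted p = 0.0107). Ect2, the exchange factor that switches on RhoA at the cell equator, stood at 6.33, 3.73, 2.64 and 0.909 CPM in CTRL and 20.7, 6.94 and 10.7 CPM in EXP on day 4. Fitted log2 fold changes stood at -2.54 ± 0.63 (adjusted p = 0.00489), 2.24 ± 0.76 (adjusted p = 0.0560) and 1.92 ± 0.68 (adjusted p = 0.0477), and the day 4 call was the nearest of the 24 named genes to the threshold.

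Among the 24 named genes, 14 were called on day 2, and Cdca8, Spc24 and Stmn1 kept that call in every alternative tried. Without replicate 1 of the day 2 controls the call of the other 11 was lost. On day 4, 24 were called, and without replicate 1 of the EXP libraries 10 kept the call, which were Birc5, Ccnb2, Cdca8, Cenpa, Dlgap5, Kif20a, Kif22, Spc24, Stmn1 and Ube2c. Within the low-side libraries of day 4 none of the 24 kept it. On day 1, 19 were called, and 15 kept the call in every alternative tried. The exceptions were Bub1b, Ect2 and Ndc80, which were not called within the high-side libraries, and Kif22, which was not called without replicate 3 of the controls. Exons of 15 of the 50 genes overlap those of another annotated gene, Ccna2, Top2a, Cdca8, Cdc20, Ube2c, Kif20a, Kif22, Prc1 and Stmn1 among those named, and whether counting used the strand is not given in the sources used here. A pseudogene or related copy is named in the annotation for Ccnb1, Ccnb2, Kif4, Kif22 and Stmn1. The counts of these genes are uncertain to that extent.

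Per kilobase of the longest annotated transcript, the highest mean levels in the day 1 controls were those of Cks2, at 10.6 CPM per kilobase, Stmn1, at 6.94, and Pttg1, at 5.51. In the day 4 EXP libraries the highest mean levels were those of Ccnb2, at 26.3 CPM per kilobase, Cks2, at 17.4, and Pttg1, at 12.9. Without EXP replicate 1 of day 4 the order was Cks2, at 13.4 CPM per kilobase, Ccnb2, at 13.1, Stmn1, at 10.5, and Pttg1, at 7.94.

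Other cell division genes were compared with the same test. Of 72 further mitosis genes, 34 were lower and 4 higher in EXP on day 1 (14.7% and 13.9% of all genes). On day 2, 35 were higher and 1 lower (7.72% and 5.71%), and on day 4, 48 were higher and 2 lower (12.8% and 9.66%). Their median log2 fold changes were -1.30, 1.84 and 2.11. Log2 fold changes were negative for 63 of the 72 on day 1 and positive for 67 on day 2 and 68 on day 4, as for Ncapg, a condensin subunit, at -2.73 ± 0.77 (adjusted p = 0.0116), 3.10 ± 0.93 (adjusted p = 0.0313) and 3.44 ± 0.83 (adjusted p = 0.00727). The 4 that were higher on day 1 were Bub3, Ccnf, Gas2l3 and Zwint. Gas2l3, which links actin to microtubules, was higher on all 3 days, at 1.44 ± 0.27 (adjusted p = 0.000529), 1.90 ± 0.33 (adjusted p = 0.000965) and 1.85 ± 0.29 (adjusted p = 0.000466). Wee1, the kinase that holds Cdk1 inactive, was lower on day 4, at -2.15 ± 0.68 (adjusted p = 0.0285).

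DNA replication genes act in S phase, before mitosis. Of 35 tested, 4 were lower and 1 was higher in EXP on day 1, with a median log2 fold change of -0.50, where 14.7% of all genes were lower and 13.9% higher. Among those lower was Rrm2, a subunit of ribonucleotide reductase, at -1.79 ± 0.42 (adjusted p = 0.00367), and the one higher was Pcna, the sliding clamp, at 0.64 ± 0.16 (adjusted p = 0.00552). On day 2, 22 of the 35 were higher and 0 lower (7.72% and 5.71% of all genes), with a median of 1.51. On day 4, 18 were higher and 0 lower (12.8% and 9.66%), with a median of 1.19. The helicase gene Mcm5 had log2 fold changes of -1.09 ± 0.45 (adjusted p = 0.0771), 3.65 ± 0.62 (adjusted p = 0.000959) and 2.50 ± 0.53 (adjusted p = 0.00340). Pole, the catalytic subunit of the leading-strand polymerase, was at 4.16 ± 0.85 (adjusted p = 0.00356) on day 2.

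**Figure D5:**
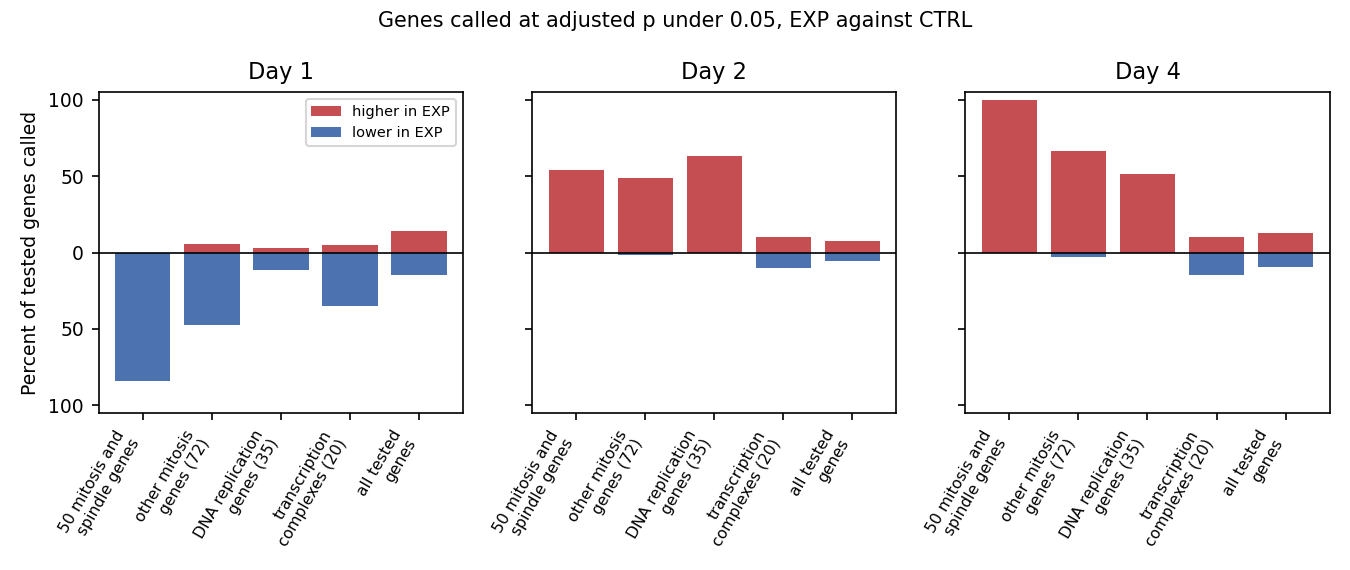
Percent of tested genes called higher (red, upwards) or lower (blue, downwards) in EXP at adjusted p under 0.05 on each day, for the 50 mitosis and spindle genes, 72 other mitosis genes, 35 DNA replication genes, 20 genes of mitotic transcription complexes and all 17554 genes tested. On day 1 the lower calls take 42 of the 50 mitosis and spindle genes and 4 of the 35 replication genes, and on day 2 the higher calls take 27 of the 50 and 22 of the 35.

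Genes of the transcription complexes that control mitotic genes were mixed. Of 20 tested, with Lin54 not matched, 7 were lower and 1 higher on day 1, where 14.7% of all genes were lower and 13.9% higher. On day 2, 2 were higher and 2 lower, where 7.72% and 5.71% of all genes were. On day 4, 2 were higher and 3 lower, where 12.8% and 9.66% of all genes were. The counts of days 2 and 4 were thus near those shares. Mybl2, which encodes the B-Myb protein of the activating MuvB complex, had log2 fold changes of -3.48 ± 0.63 (adjusted p = 0.000385), 3.56 ± 0.75 (adjusted p = 0.00398) and 2.85 ± 0.63 (adjusted p = 0.00423). Foxm1, one of the 50, had -2.22 ± 0.49 (adjusted p = 0.00194), 1.98 ± 0.59 (adjusted p = 0.0301) and 2.72 ± 0.54 (adjusted p = 0.00216). Rbl2, which encodes the pocket protein p130 of the repressive DREAM complex, was lower on all 3 days, at -1.14 ± 0.17 (adjusted p = 7.09e-05), -1.02 ± 0.21 (adjusted p = 0.00350) and -0.93 ± 0.20 (adjusted p = 0.00326). E2f7, a repressor of the E2F family, was at -2.43 ± 0.44 (adjusted p = 0.000386) on day 1 and 2.24 ± 0.49 (adjusted p = 0.00397) on day 4. Other genes did not follow the mitotic genes. E2f1 was lower on day 1, at -2.06 ± 0.24 (adjusted p = 8.75e-06), and on day 2, at -0.93 ± 0.29 (adjusted p = 0.0353). E2f3 was higher on both days, at 1.21 ± 0.30 (adjusted p = 0.00472) and 2.24 ± 0.38 (adjusted p = 0.000842). E2f5, at -2.45 ± 0.66 (adjusted p = 0.0134), and Lin52, at -0.96 ± 0.21 (adjusted p = 0.00358), were lower on day 4. The NF-Y subunit genes Nfya, Nfyb and Nfyc were not called on any day.

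Markers of other cell types also moved with the arms. Of the 5 adipocyte markers tested of 6 listed, 0 were called on day 1. Cidec and Fabp4 were higher in EXP on day 2 (7.72% of all genes) and all 5 adipocyte markers on day 4 (12.8%). Their sum was 0.545 to 2.22 CPM in the day 4 controls and 43.5, 177 and 502 CPM in EXP replicates 1, 2 and 3, so the library with the highest mitotic sum had the lowest adipocyte sum of its group. On day 2 the adipocyte sum was 0.249 to 3.13 CPM in CTRL and 8.02 to 88.8 CPM in EXP, and on day 1 it was 1.82 to 24.9 CPM in CTRL and 0.835 to 9.65 CPM in EXP. Of the 7 endothelial markers tested of 8, Kdr was higher in EXP on day 2 (7.72% of all genes) and Kdr and Emcn on day 4 (12.8%). The endothelial sum on day 4 was 4.15 to 12.1 CPM in CTRL and 24.2 to 55.9 CPM in EXP. The endothelial sum was 0.249 to 0.808 CPM in CTRL and 2.04 to 7.77 CPM in EXP on day 2, and 5.76 to 9.0 CPM and 1.02 to 8.48 CPM on day 1. Keratinocyte markers, with 12 of 12 tested, summed to 10.2 to 59.5 CPM in CTRL and 3.84 to 23.3 CPM in EXP on day 1. Their arms were apart on day 2, at 10.7 to 48.3 CPM and 6.33 to 7.32 CPM, and overlapped on day 4, at 12.9 to 36.6 CPM and 4.26 to 32.5 CPM. The one lower in EXP was Krt10 on day 1 and Trp63 on days 2 and 4. Of 10 fibroblast markers, 5, 6 and 4 were lower in EXP on days 1, 2 and 4 (14.7%, 5.71% and 9.66% of all genes). The 1 higher on each day was Pdgfra. The fibroblast sum on day 1 was 211805 to 285094 CPM in CTRL and 94550 to 172032 CPM in EXP. On day 2 it was 329531 to 409545 CPM in CTRL and 69197 to 172119 CPM in EXP. The arms overlapped on day 4, at 268596 to 370977 CPM and 83925 to 281278 CPM, with EXP replicate 1 the lowest. Of the 8 immune markers tested of 12, S100a8 was higher in EXP on each day, Cd68 on days 1 and 2 and Cd3e on day 4, while Csf1r was lower on day 1. Their sum was lower in each EXP library than in any control on day 2 and overlapped on days 1 and 4, at 37.8 to 54.9 CPM in EXP and 43.6 to 91.6 CPM in CTRL on day 1, 66.8 to 96.4 CPM and 114 to 166 CPM on day 2, and 72.1 to 144 CPM and 108 to 151 CPM on day 4. Pericyte and smooth muscle markers, with 8 of 8 tested, summed to 49.9 to 92.3 CPM in CTRL and 21.5 to 45.7 CPM in EXP on day 1, and to 88.7 to 97.7 CPM and 30.05 to 52.9 CPM on day 2. The arms were apart on both days and overlapped on day 4, at 58.8 to 124.01 CPM and 25.1 to 71.2 CPM, and the genes called lower were Abcc9 and Cspg4 on day 1 and Des on day 2. Among the few tested genes of the other lists, the melanocyte marker Tyrp1 was lower on days 2 and 4, with 0 counts in each EXP library of those days. The sum of the melanocyte list went the other way on day 2, at 5.97 to 14.1 CPM in CTRL and 15.2 to 37.0 CPM in EXP. On day 4 that sum overlapped, at 5.15 to 18.9 CPM in CTRL and 1.93 to 23.9 CPM in EXP. The Schwann cell marker S100b was lower on day 1. The skeletal muscle marker Tnnt3 was lower on day 2 and Acta1 was higher on day 4. The part of these markers in the differences of the mitotic genes was not tested.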

How the data were processed

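The 50 genes and the lists used beside them were chosen with earlier results of these data known. RNA was taken from sorted cells and sequenced as ultra-low-input libraries, per the labels' protocols. The authors deposited raw counts per gene for all 22 libraries. The submitters' processing notes name Trimmomatic and the build mm39. The aligner, the counting tool and its use of strand are not given in the sources used here. Groups were read from the labels, and 0 count columns lacked one. Symbols come from GENCODE M21 and promoters from RefSeq (GRCm38.p6), so no coordinate was read on mm39.

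Counts were fitted with edgeR 4.0.16 in R 4.3.3 (TMM, filterByExpr at a minimum count of 10, robust quasi-likelihood F-test, 1 mean for each of 6 groups, 16 residual degrees of freedom), checked on simulated counts. P-values were adjusted over 17554 genes by the Benjamini-Hochberg method and called under 0.05. Genes named in full are, in each of 8 roles, the 2 with the highest mean CPM and those with the smallest and largest p in the joint test of days, 24 in all. Genes named beyond these, from the 50 or from other lists, were chosen after their values were seen. Alternatives were DESeq2 1.42.0, limma 3.58.1 (voom with quality weights for libraries), and other scalings and filters. A replicate block, the library division as a covariate, each day alone, and each library left out were also tried. Comparisons within the sides of the library division were added after seeing the data. Replicates of a group differed by more than counting noise (chi-square per degree of freedom 27.3 to 437), so none was merged.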

Additional observations from a re-analysis of the deposited data

Results flagged for a closer look

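The EXP effect differed between days for 47 of the 50 genes in edgeR's joint test. Among the genes named in full, the adjusted p was 8.57e-05 for each of Cdca8, Spc24 and Stmn1, 2.11e-04 for Ccna2, 3.22e-04 for Birc5, 3.39e-04 for Prc1 and 4.20e-04 for Mki67. It was 5.85e-04 for Ccnb2, 5.94e-04 for Kif20a, 8.04e-04 for Ube2c and 8.17e-04 for Racgap1. For Kif22 it was 0.00102, for Cenpa 0.00134, for Anln 0.00143, for Top2a 0.00187, for Cdc20 0.00407 and for Ect2 0.00490. For Bub1b it was 0.00550, for Ndc80 0.00581, for Incenp 0.0104, for Dlgap5 0.0212 and for Kif23 0.0398. Each of these 22 genes had a lower fitted level in EXP on day 1 and a higher one on days 2 and 4.

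Single libraries lay far from the rest of their group, by Dixon's criterion, in 7 of the 75 sets of values looked at, from groups with 4 or 5 libraries. For normally distributed values chance gives about 3.75. The flags were not independent, as replicate 3 of the day 1 controls was the highest of its group for 49 of the 50 genes. The 7 therefore cannot be weighed against the 3.75. Of the 7, 4 were in replicate 3 of the day 1 controls. Cdc20 stood there at 17.5 CPM, with the other controls at 3.29 to 4.66 CPM. Racgap1 stood at 14.2 CPM beside 5.90 to 6.48 CPM, Cks2 at 11.9 CPM beside 5.31 to 6.36 CPM, and Bub1b at 7.30 CPM beside 1.82 to 2.35 CPM. The other 3 were in replicate 1 of the day 1 EXP libraries. Ect2 stood there at 2.76 CPM, with the other EXP libraries at 0.484 to 0.835 CPM. Ccnb2 stood at 1.64 CPM beside 0.547 to 0.764 CPM, and Bub1b at 1.19 CPM beside 0 to 0.121 CPM.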

How the results depend on the processing

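The day 1 count of 42 lower genes stayed within 1.5 times of itself in every alternative, at 37 to 43 when single libraries were left out. The day 2 count of 27 higher genes was 13 with every gene that had a count, 45 with limma voom and 5 to 32 without single libraries. The day 4 count of 50 was 27 in a fit of that day alone, 0 within the low side of the library division, which was chosen after seeing the data, and 16 to 50 without single libraries. The control arm from day 1 to day 2 had 6 lower genes with DESeq2 and 7 with limma voom. Without single libraries the joint test called 44 to 49 genes, and the change of the effect from day 1 to day 2 was called for 29 to 44. Within the expanded arm 33 to 44 were called higher on day 2 than on day 1. Except where stated above, the share of all genes called in these fits is not given here. The log2 ratio of the mean summed CPM on day 1 was -2.37. A different measure, the mean of log2(CPM + 1) over the genes, differed between the arms by -1.52. Without single libraries the log2 ratio of day 1 ranged from -2.56 to -1.90. Those of days 2 and 4 ranged from 1.86 to 2.79 and from 1.92 to 3.19.

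Same-numbered libraries of the arms deviated together weakly at most (correlations -0.0664 to 0.164). Group means rest on few libraries, so these correlations cannot decide whether the numbers pair them, and the labels do not say. With a replicate block the counts were 43 lower on day 1, 31 higher on day 2, 38 higher on day 4 and 42 in the joint test. The share of all genes called with that block is not given here, so these counts cannot be set against the background.

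For the named genes, 2174 of the values under alternatives kept direction and call, 136 lost a call, 36 gained one and 6 changed sign, none of the last called in either fit. The log2 fold change of Pttg1 on day 2 was 0.19 without TMM, and without single libraries it ranged from -0.74 to 0.038, the latter without EXP replicate 1. That of Dlgap5 on day 1 was 0.022 with the library division as a covariate and 0.23 within its high side, and without single libraries it ranged from -0.73 to 0.25, above 0 without control replicate 3 (0.25) or EXP replicate 3 (0.042). The cause of these changes was not tested. At 3 counts or fewer stood 6 to 16 of the 50 genes in the day 1 EXP libraries, 9 in replicate 1 of the day 2 controls and 9 in replicate 4 of the day 4 controls, which limits the precision of their fold changes.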
